A study of Mus musculus with 6 samples.

Results

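The genes of cholesterol synthesis and sterol sensing were followed in M2 macrophages (Mφs) in which the tRNA fragment 5′tRF-Glu(CTC) had been targeted. They are 28 of the 41549 genes in the mRNA table and were chosen by gene symbol. There are 19 enzymes that lead from acetyl-CoA units to cholesterol, 4 genes of sterol sensing, 3 of sterol transport and cholesteryl ester turnover and 2 that make oxysterols. Bone marrow cells of wild-type C57Bl/6N mice, aged 10 to 12 weeks, were differentiated into Mφs with macrophage colony-stimulating factor (M-CSF) for 7 days. The Mφs were transfected with an antisense oligonucleotide built with locked nucleic acid, either against the fragment (αGlu) or as a control (Ctr), and then polarised for 48 h by IL-4 plus IL-13. Each group had 3 libraries from independent experiments, and both groups received the transfection reagent and the cytokines. These are Mφs grown in culture, and their libraries hold mRNA, so that the fragment itself was not measured and its blockade could not be checked here.

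Cells make cholesterol from acetyl-CoA through mevalonate, the isoprenoid diphosphates, squalene and lanosterol. The pathway is controlled by SREBP-2, the product of Srebf2, a membrane-bound transcription factor that its escort Scap carries from the endoplasmic reticulum to the Golgi when sterols are scarce. Insig1 and Insig2 hold that complex back when sterols are plentiful, and most enzymes of the pathway, Insig1 and Srebf2 itself are textbook targets of SREBP-2. In Mφs, cholesterol is also stored as esters made by Soat1 and freed by Nceh1, and is converted into signalling oxysterols by Ch25h and Cyp27a1.

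The sequence of the antisense and that of its target are given first, because the comparison rests on that oligonucleotide. Capitals mark the bases of the target that pair with the antisense, which are bases 2 to 21 counted from the 5′ end of the fragment.
Antisense against 5′tRF-Glu(CTC): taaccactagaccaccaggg
Target, 5′ end of tRNA-Glu(CTC): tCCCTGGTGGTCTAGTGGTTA

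Promoter windows of RefSeq (GRCm38.p6), from 250 bases before to 50 bases after a transcription start site, were available for 24 members in 30 windows. The members without a window were Fdps, Fdft1, Sqle and Stard4. Both strands were searched for the letters TCACNCCAC of a sterol regulatory element, the CCAAT box bound by NF-Y, the GGGCGG box bound by Sp1 and the E-box CACGTG. None of these letter strings contains another. The CCAAT box was in 21 of the 30 windows (70%), against 37.4% of all 32851 windows in the RefSeq table. GGGCGG was in 23 (76.7%), against 35.7%, and CACGTG in 7 (23.3%), against 7.15%. TCACNCCAC was in 1 window, that of Hmgcs1, against 1.24% of all windows. These are letter matches without a test. The 250 bases before the start site are shown for 3 members whose groups did not overlap, on the strand of the gene, with each match in capitals: Hmgcs1 at chr13:119690101-119690350 on the plus strand, Cyp51 at chr5:4104698-4104947 on the minus strand, and Insig1 at chr5:28071162-28071411 on the plus strand. In Hmgcs1 the sterol regulatory element lies between inverted CCAAT boxes and is followed by Sp1 boxes on both strands, whereas Cyp51 has 1 CCAAT box close to the start site and Insig1 has its E-box between the Sp1 boxes and the start site.
Hmgcs1: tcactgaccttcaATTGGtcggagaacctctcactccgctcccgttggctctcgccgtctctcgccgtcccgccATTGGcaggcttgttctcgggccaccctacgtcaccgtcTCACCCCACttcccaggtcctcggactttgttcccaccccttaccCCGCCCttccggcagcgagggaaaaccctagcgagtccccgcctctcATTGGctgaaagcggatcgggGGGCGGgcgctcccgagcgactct
Cyp51: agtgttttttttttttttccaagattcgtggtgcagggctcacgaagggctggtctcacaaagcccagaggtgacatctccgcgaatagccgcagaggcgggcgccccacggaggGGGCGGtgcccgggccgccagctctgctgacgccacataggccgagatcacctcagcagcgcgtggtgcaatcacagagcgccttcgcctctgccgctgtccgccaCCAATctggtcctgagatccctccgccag
Insig1: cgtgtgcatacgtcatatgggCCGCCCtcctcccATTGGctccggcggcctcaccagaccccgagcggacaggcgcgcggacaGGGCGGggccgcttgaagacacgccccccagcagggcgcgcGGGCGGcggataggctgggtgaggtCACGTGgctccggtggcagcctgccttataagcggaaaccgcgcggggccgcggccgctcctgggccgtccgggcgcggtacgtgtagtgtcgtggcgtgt

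The 6 libraries held 17912831 to 30386653 reads over exons. All 10 Mφ markers had a mean above 1 CPM, which is the reads of a gene scaled to library size. Their summed level was 12500 to 14000 CPM in Ctr and 13200 to 19700 CPM in αGlu. Cd3e, which defines T cells, stayed near 0. The 9 lymphocyte markers, 1 of them above 1 CPM, summed to 17.9 to 30.9 CPM in Ctr and 18.4 to 21.4 CPM in αGlu. The 10 neutrophil markers, 4 of them above 1 CPM, summed to 129 to 211 CPM in Ctr and 240 to 636 CPM in αGlu. The sum is carried by the abundant markers. The mean log2 CPM of the 10 was 0.06, 0.49 and -0.51 in Ctr 1 to 3 and -0.21, -0.61 and -0.9 in αGlu 1 to 3. Of the 4 neutrophil markers tested, 2 were lower in αGlu and 2 higher. αGlu 1 stood apart from its group. Over the 11933 genes tested its log2 CPM correlated with the Ctr libraries at a Pearson r of 0.966 to 0.982 and with αGlu 2 and αGlu 3 at 0.929, whereas αGlu 2 and αGlu 3 correlated with each other at 0.992. Values are therefore given for each library, and the comparison was also made without αGlu 1. CPM values were scaled by the trimmed mean of M-values (TMM), and fold changes are αGlu over Ctr on the log2 scale with their standard error (SE). The 15 genes of the response to IL-4 and IL-13 went both ways. Of the 14 tested, 6 had a log2 fold change below 0, against 48.0% of all genes, and 8 above. Their values ran from -4.22 to 5.06.

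The αGlu libraries held less mRNA of most cholesterol synthesis enzymes. A total of 27 of the 28 members passed the low-count filter. Their median log2 fold change was -0.87, against 0.02 for all 11933 genes, and 24 of the 27 lay below 0, against 48.0% of all genes. For 20 of the 27, every αGlu library lay below every Ctr library, which held for 15.9% of all genes. None of the 27 lay above Ctr without overlap, which held for 14.2% of all genes. Ch25h, the member that the filter removed, had 657 and 577 reads in αGlu 2 and αGlu 3. It had only 7 reads in αGlu 1, against 4, 4 and 1 in Ctr. For Idi1, Fdps, Sqle, Cyp51 and Insig1 the lowest Ctr library was more than 2 times the highest αGlu library, as for 1.11% of all genes. In bulk RNA, fewer cells that express a gene and less of its mRNA per cell cannot be told apart.

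No member passed the test. The quasi-likelihood test of edgeR, thresholded at an adjusted p of 0.1 together with a log2 fold change past 1 in either direction, called 0% of the genes, and the lowest adjusted p of any gene, 0.149, was also the lowest among the members. Without adjustment, 2943 genes had a p under 0.05. The 20 members whose groups did not overlap were also those with an unadjusted p under 0.05 and a lower level, a rule that took in 11.9% of all genes, and no member had such a p and a higher level, against 12.7%. DESeq2 called 13 of the 28 members lower, against 3.92% of its 13742 genes, and 1 higher, against 4.21%. Those called lower were Hmgcs1, Idi1, Fdps, Fdft1, Sqle, Cyp51, Msmo1, Hsd17b7, Sc5d, Dhcr7, Srebf2, Insig1 and Stard4, and Ch25h was called higher. Without αGlu 1, edgeR called 13 members lower, against 10.5% of 12340 genes, and again Ch25h higher, against 8.05%. Ch25h entered that fit only through its reads in αGlu 2 and αGlu 3, so it had to differ there. That list of 13 has Cyp27a1 in place of Hsd17b7.

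**Figure D1:**
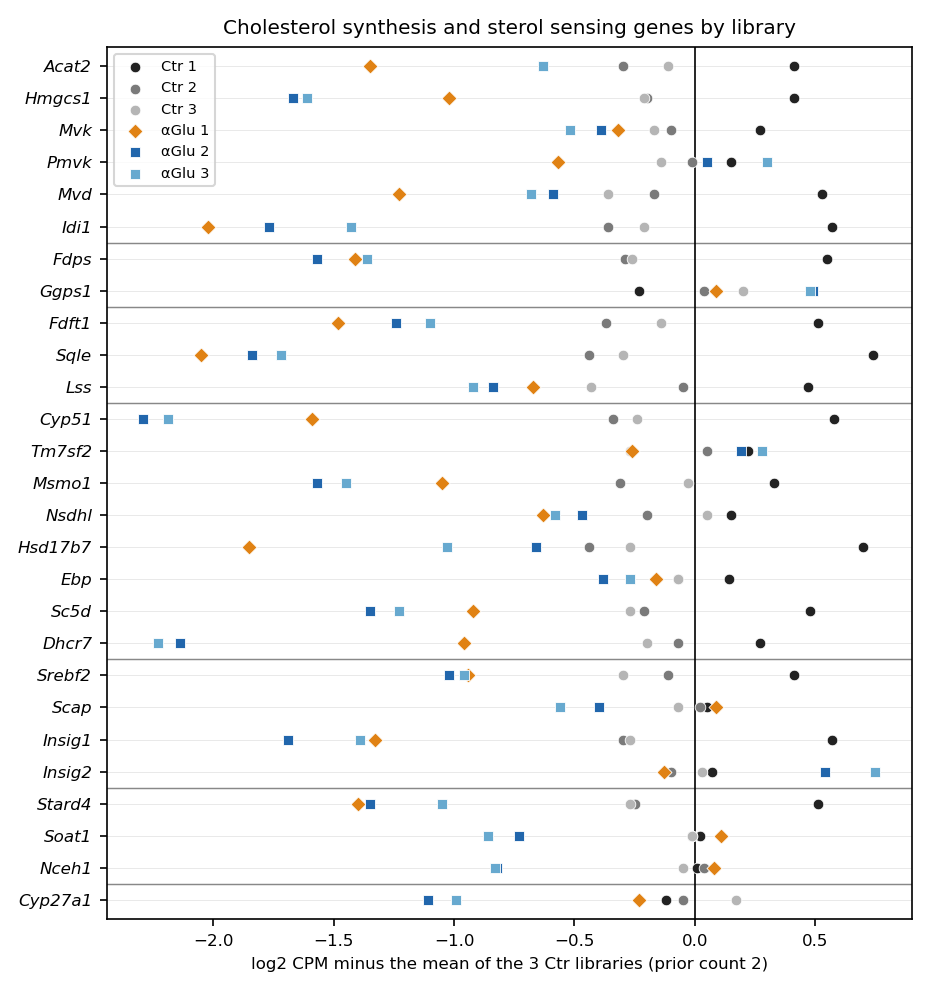
Log2 CPM of 27 members in each library, relative to the mean of the 3 Ctr libraries (circles, Ctr; diamonds, αGlu 1; squares, αGlu 2 and αGlu 3). Horizontal lines part the roles, in the order mevalonate, prenyl diphosphates, squalene and lanosterol, lanosterol to cholesterol, sterol sensing, transport and esters, oxysterols. All 3 αGlu libraries lie left of all Ctr libraries for 20 members, while Soat1, Nceh1 and Scap are low in αGlu 2 and αGlu 3 only; Ch25h is not drawn.

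The 6 mevalonate enzymes had a median log2 fold change of -0.86, and 5 of them did not overlap. Hmgcs1, which condenses acetoacetyl-CoA to HMG-CoA, stood at 146, 95.5 and 95 CPM in Ctr 1 to 3 and at 54.2, 34.3 and 35.8 CPM in αGlu 1 to 3. αGlu 1 was the highest of its group and still below the lowest Ctr library. The log2 fold change was -1.44 ± 0.26 (SE; adjusted p 0.149, edgeR). Idi1, which isomerises isopentenyl diphosphate, stood at 47.6, 25 and 27.7 CPM in Ctr and 7.86, 9.35 and 11.8 CPM in αGlu. Here αGlu 1 was the lowest library of all, and the log2 fold change was -1.78 ± 0.30 (adjusted p 0.149, edgeR). Acat2, a thiolase that makes acetoacetyl-CoA, and Mvd, which makes isopentenyl diphosphate, also had αGlu 1 as their lowest library, with log2 fold changes of -0.87 ± 0.28 and -0.86 ± 0.29. Acat2 has a near copy, Acat3, with which reads could be shared. Mvk, the first kinase of the pathway, differed less, at -0.42 ± 0.15. Pmvk, the second kinase, was the exception, with 14.3 ± 1.46 CPM for Ctr against 13.9 ± 4.01 CPM for αGlu (mean ± SD, n = 3), with a log2 fold change of -0.03 ± 0.23 whose sign turned without αGlu 1 (0.17).

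The pair of enzymes that extend the isoprenoid chain went apart. Fdps makes farnesyl diphosphate, the precursor of squalene, and stood at 70.8, 39.5 and 40.4 CPM in Ctr and 18.1, 16.2 and 18.7 CPM in αGlu. Its αGlu libraries lay close together and far below Ctr, with a log2 fold change of -1.51 ± 0.25 (adjusted p 0.149, edgeR). Ggps1 turns farnesyl diphosphate away from sterols, into the geranylgeranyl diphosphate that anchors small GTPases. It stood at 20.5, 24.8 and 27.7 CPM in Ctr and 25.6, 33.9 and 33.7 CPM in αGlu. αGlu 1 lay within the Ctr range and the other two above it, and the log2 fold change was 0.35 ± 0.16 (adjusted p 0.227, edgeR).

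The enzymes that make squalene and close it to lanosterol had a median log2 fold change of -1.32, and none of the 3 overlapped. Sqle, squalene epoxidase, a rate-limiting step of the later pathway, stood at 64.4, 28.3 and 31.2 CPM in Ctr and 9.23, 10.7 and 11.6 CPM in αGlu. The αGlu libraries spread little and the Ctr libraries widely, with Ctr 1 more than 2 times as high as the mean of the other two (2.17). The log2 fold change was -1.97 ± 0.35 (adjusted p 0.149, edgeR). Without Ctr 1 it was -1.49. Fdft1, squalene synthase, differed by -1.32 ± 0.25 and Lss, lanosterol synthase, by -0.86 ± 0.23.

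Of the 8 enzymes from lanosterol to cholesterol, 7 lay lower in αGlu without overlap, and their median log2 fold change was -1.20. Cyp51, the first demethylase of lanosterol (chr5:4081145-4104746), had the largest fold change of the 27 members. It stood at 67.8, 35.8 and 38.4 CPM in Ctr and 15, 9.19 and 9.87 CPM in αGlu. αGlu 1 lay above its group but well below Ctr, and the log2 fold change was -2.07 ± 0.32 (adjusted p 0.149, edgeR), or 4.19-fold lower. Msmo1, the methylsterol oxidase of the next demethylations, had the smallest unadjusted p of the members (0.000649, edgeR). The Ctr libraries had 104, 66.2 and 80.7 CPM and the αGlu libraries 39.6, 27.5 and 30 CPM, for a log2 fold change of -1.37 ± 0.21. Again the groups lay well apart, with αGlu 1 the highest of the αGlu libraries.

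Dhcr7 performs the last step, the reduction of 7-dehydrocholesterol, and was graded between the αGlu libraries. It stood at 79.6, 62.9 and 57.6 CPM in Ctr, at 34 CPM in αGlu 1, and at 14.9 and 14 CPM in αGlu 2 and αGlu 3. Its log2 fold change was -1.68 ± 0.38 with all libraries and -2.21 ± 0.16 without αGlu 1. Sc5d, which acts just before Dhcr7, differed by -1.20 ± 0.24, and Hsd17b7 and Nsdhl, which remove the C4 groups with Msmo1, by -1.20 ± 0.43 and -0.57 ± 0.12. Hsd17b7 had few reads in αGlu 1 (35). Ebp, the sterol isomerase, differed by only -0.27 ± 0.10, although its groups did not overlap. Tm7sf2, a sterol reductase, was the exception of this step and stood at 4.27, 3.8 and 3.02 CPM in Ctr and 3.04, 4.19 and 4.47 CPM in αGlu. Its groups overlapped fully and its log2 fold change was 0.08 ± 0.23 (adjusted p 0.829, edgeR).

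**Figure D2:**
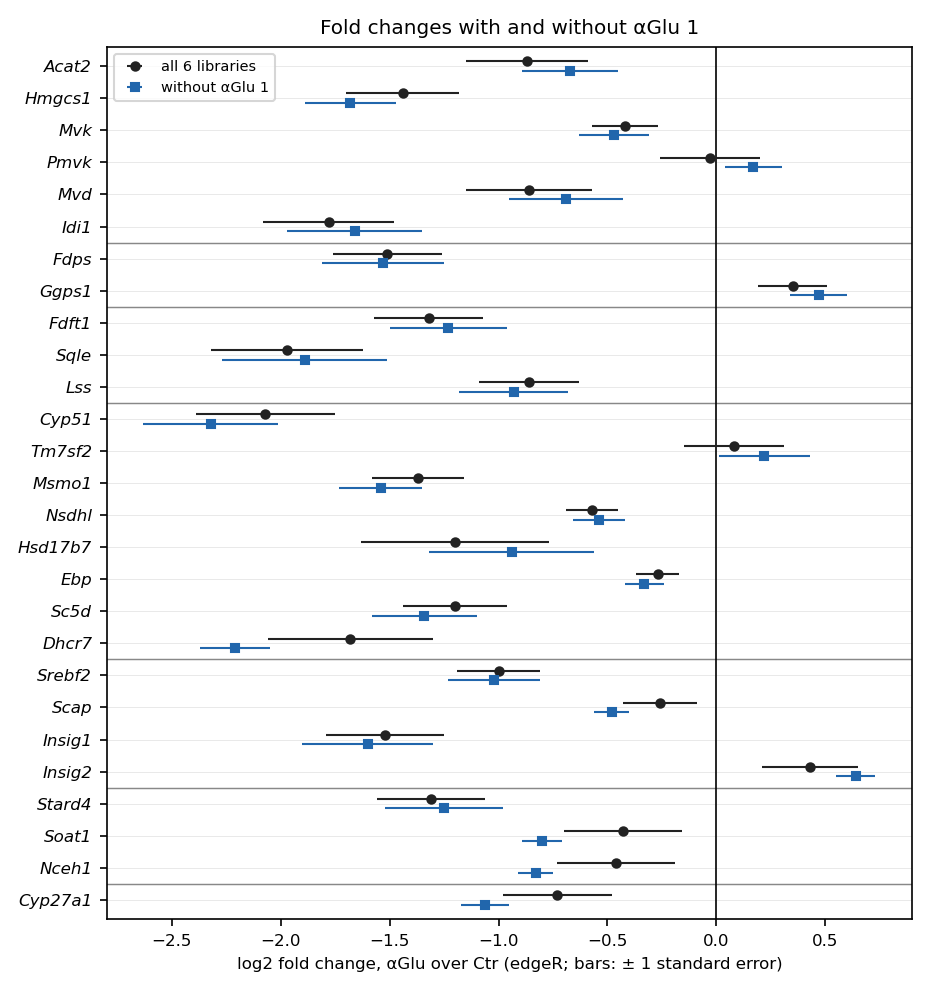
Log2 fold change of αGlu over Ctr for the 27 members tested, from edgeR with all 6 libraries (circles) and without αGlu 1 (squares); bars are ± 1 SE. Cyp51 is lowest with all libraries at -2.07, and Dhcr7, Soat1, Nceh1 and Cyp27a1 move furthest down when αGlu 1 is left out, with narrower bars.

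In sterol sensing, Srebf2 and Insig1 lay lower in αGlu, whereas Scap and Insig2 overlapped with Ctr. Srebf2 stood at 164, 115 and 100 CPM in Ctr and 64.5, 61.1 and 63.7 CPM in αGlu. The αGlu libraries lay close together, all of them below the lowest Ctr library, and the log2 fold change was -1 ± 0.19 (adjusted p 0.149, edgeR). Insig1 stood at 73.8, 40.4 and 41.1 CPM in Ctr and 19.7, 15.4 and 19 CPM in αGlu. The lowest Ctr library was 2.05 times the highest αGlu library, and the log2 fold change was -1.52 ± 0.27 (adjusted p 0.149, edgeR). Its paralog Insig2, which is not a target of SREBP-2, stood at 31.7, 28.3 and 30.9 CPM in Ctr and 27.7, 44 and 50.8 CPM in αGlu. αGlu 1 lay just under the Ctr range and the others above it, with a log2 fold change of 0.43 ± 0.22 (adjusted p 0.265, edgeR) that was 0.64 ± 0.09 without αGlu 1. Scap showed the opposite split, at 60.4, 59 and 55.2 CPM in Ctr and 62.1, 44.2 and 39.5 CPM in αGlu. αGlu 1 was its highest library, and the log2 fold change of -0.26 ± 0.17 became -0.48 ± 0.08 without it.

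Sterol transport and ester turnover held both patterns. Stard4, a carrier that moves cholesterol between membranes and is itself an SREBP-2 target, lay lower in all αGlu libraries, with 27.2 ± 8.94 CPM for Ctr against 11 ± 1.51 CPM for αGlu (mean ± SD, n = 3), with a log2 fold change of -1.31 ± 0.25. Soat1, which esterifies cholesterol, was at 720 ± 10.7 CPM in Ctr, 775 CPM in αGlu 1, and 435 and 397 CPM in αGlu 2 and αGlu 3. Nceh1, which hydrolyses the esters, was at 444 ± 15.2 CPM in Ctr, 469 CPM in αGlu 1, and 251 and 249 CPM in the others. Both genes were thus above the Ctr range in αGlu 1 and well below it in αGlu 2 and αGlu 3. Their log2 fold changes of -0.43 ± 0.27 and -0.46 ± 0.27 became -0.80 ± 0.09 and -0.83 ± 0.08 without αGlu 1, short of the fold threshold. Without αGlu 1, Scap, Soat1 and Nceh1 joined the members that lay lower without overlap, which then were 23 of 28, against 32.2% of 12340 genes. Ggps1, Insig2 and Ch25h then lay higher without overlap, 3 of 28, against 33.7% of those genes.

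The oxysterol genes went in opposite directions in αGlu 2 and αGlu 3. Ch25h, which makes 25-hydroxycholesterol and is inducible by interferon and Toll-like receptor signals, had 4, 4 and 1 reads in Ctr and 7, 657 and 577 reads in αGlu. This is 0.132 ± 0.0743 CPM in Ctr (mean ± SD, n = 3), 0.401 CPM in αGlu 1, and 20.7 and 21.2 CPM in αGlu 2 and αGlu 3. The gene was almost silent in αGlu 1 and in Ctr, and the low-count filter removed it from the main test because only 2 libraries had enough reads. Without the filter its edgeR adjusted p was 0.162. Cyp27a1, which makes 27-hydroxycholesterol, stood at 43.6 ± 4.62 CPM in Ctr, at 37 CPM in αGlu 1, and at 20.1 and 21.8 CPM in αGlu 2 and αGlu 3. αGlu 1 lay close below the lowest Ctr library of 40.1 CPM, and the log2 fold change was -0.73 ± 0.25, or -1.06 ± 0.11 without αGlu 1.

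The synthesis enzymes differed between the experiments as well as between the groups. The median of the 19 enzymes relative to the Ctr mean was 0.41, -0.20 and -0.21 on the log2 scale in Ctr 1 to 3, and -1.02, -0.84 and -1.03 in αGlu 1 to 3. Ctr 1 was the highest Ctr library for 18 of the 19 enzymes. The enzymes took 0.0901%, 0.0563% and 0.0591% of the reads in Ctr 1 to 3, and 0.034%, 0.0323% and 0.0344% in αGlu 1 to 3. αGlu 1, which resembled Ctr across all genes, was as low as αGlu 2 and αGlu 3 for the enzymes as a whole. Without Ctr 1 the median log2 fold change of the members was -0.68, and the same test then gave an adjusted p of 0.351 for Cyp51, Sqle and Srebf2.

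The mean log2 levels of dividing-cell markers and of inflammatory genes also differed between the groups. The mean log2 level of 15 dividing-cell markers, relative to the Ctr mean, was 0.72, -0.61 and -0.12 in Ctr 1 to 3 and -1.75, -1.56 and -1.41 in αGlu 1 to 3. Of these 15, 11 lay lower in αGlu without overlap, against 15.9% of all genes. The summed level of all 15 was 98 to 219 CPM in Ctr and 57.9 to 190 CPM in αGlu. Like the median of the enzymes, this mean was highest in Ctr 1 and low in all αGlu libraries. Not every marker followed it. Mki67, a proliferation antigen named here after its values were seen, stood at 49.2, 13.2 and 18.8 CPM in Ctr and 11.9, 108 and 138 CPM in αGlu, and Ccnb1, Cdk1 and Aurkb overlapped between the groups as well. The mean CPM of the list was 10.2 and 12.6 in αGlu 2 and αGlu 3, where Mki67 was its most abundant gene, above Ctr 2 and Ctr 3 (6.53 and 8.34). The mean of 15 LPS/IFN-γ response genes was -0.32, 0.07 and 0.26 in Ctr and 1.23, 3.45 and 3.21 in αGlu. Of the 13 tested, 7 lay higher in αGlu without overlap, against 14.2% of all genes. Their list had a summed level of 532 to 1200 CPM in Ctr and 1730 to 3580 CPM in αGlu. Like these genes, Ch25h stood higher in αGlu 2 and αGlu 3 than in αGlu 1, whereas Soat1 and Nceh1 stood lower there. The enzymes as a whole had no such step, although Dhcr7 was lower in αGlu 2 and αGlu 3 than in αGlu 1. The part of either list in the members' values was not tested.

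**Figure D3:**
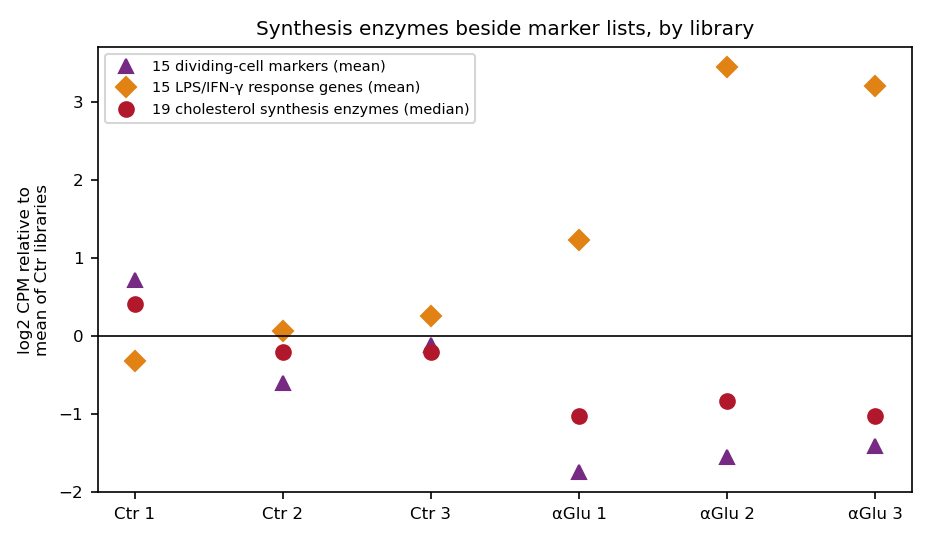
Log2 CPM relative to the mean of the Ctr libraries in each library, for the median of the 19 synthesis enzymes (circles), the mean of 15 dividing-cell markers (triangles) and the mean of 15 LPS/IFN-γ response genes (diamonds). The enzyme median and the mean of the log2 dividing-cell levels are highest in Ctr 1 and low in all 3 αGlu libraries, although Mki67, 1 of the 15 markers, is at 108 and 138 CPM in αGlu 2 and αGlu 3; meanwhile the LPS/IFN-γ genes are at 1.23 in αGlu 1 and above 3 in αGlu 2 and αGlu 3.

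Genes around the pathway differed less than its enzymes. Among 19 genes that process SREBPs or degrade sterol-regulated proteins, the median log2 fold change was -0.07, and 4 lay lower and 1 higher without overlap, against 15.9% and 14.2% of all genes, the shares to set beside each such count of the lists here. For 4 of 19 that is near the share of all genes. Marchf6, the ubiquitin ligase of squalene epoxidase, was at -0.75 ± 0.23. Among 17 genes of the isoprenoid branches the median was -0.03, with 6 lower and 2 higher without overlap. Icmt, which methylates prenylated proteins, and Trit1, which prenylates tRNA, lay higher in αGlu, at 0.26 ± 0.09 and 0.49 ± 0.18. These 2 had the smallest p of the list, but 10 of its 17 genes had a log2 fold change below 0. Dolpp1, picked after its values were seen, had the largest fold change of the list, -0.78 ± 0.36. No gene of these lists was called by edgeR with all libraries.

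Other lists held single genes with larger differences. Of 12 other sterol and mevalonate enzymes tested, with a median of -0.20, 3 lay lower and 1 higher without overlap. The latter was Soat2, the paralog of Soat1, which stood at 0.409, 0.669 and 0.696 CPM in Ctr and 2.41, 6.48 and 5.83 CPM in αGlu. It was low in all libraries but higher in each αGlu library, with a log2 fold change of 3.05 ± 0.46 (adjusted p 0.149, edgeR), and DESeq2 called it. Cyb5b, an electron carrier, differed by -0.45 ± 0.09. Of 17 genes of intracellular sterol transport, with a median of -0.20, 2 lay lower and 1 higher without overlap. Gramd1b, which moves plasma membrane cholesterol to the endoplasmic reticulum, was the higher one at 0.92 ± 0.25, and Scp2, a sterol carrier, was at -0.35 ± 0.12. Lipa, the lysosomal lipase that frees cholesterol from lipoprotein esters, was picked after its values were seen. It stood at 2280, 2430 and 2540 CPM in Ctr, 2230 CPM in αGlu 1, and 281 and 289 CPM in αGlu 2 and αGlu 3. As for Soat1 and Nceh1, αGlu 2 and αGlu 3 lay below αGlu 1, here by more. Unlike for those genes, αGlu 1 lay just below the lowest Ctr library. Hsd17b4, a peroxisomal enzyme of side-chain oxidation (-0.63 ± 0.15), and Sult2b1, a sterol sulfotransferase (-1.14 ± 0.36), were the 2 of 4 tested oxysterol and side-chain genes that lay lower without overlap. Sult2b1 had few reads, 7 to 18 in each library.

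Among the 6 lists around the pathway, the SREBP targets of fatty acid synthesis had the lowest median log2 fold change, -0.42. Of 11 such genes, 8 lay lower in αGlu without overlap, against 15.9% of all genes, and none higher. Scd2, a stearoyl-CoA desaturase named after its values were seen, was the 1 gene with a log2 fold change above 0 (0.66 ± 0.60). It stood at 298, 204 and 149 CPM in Ctr and 99.4, 492 and 438 CPM in αGlu. Without αGlu 1, edgeR called 3 of the 11 genes lower, against 10.5% of 12340 genes. Those were Scd1 (-3.04 ± 0.39), Fads2 (-1.69 ± 0.33) and Acss2 (-1.13 ± 0.20). Scd2 was the 1 gene called higher in that fit (1.10 ± 0.27), against 8.05% of all genes. With all 6 libraries, Fads2 and Fads1, the desaturases of polyunsaturated fatty acids, had the smallest p values of the list. Fads2 stood at 9.9, 8.07 and 4.83 CPM in Ctr and 1.2, 2.55 and 2.16 CPM in αGlu. As for several cholesterol enzymes, αGlu 1 was its lowest library, and the log2 fold change was -1.93 ± 0.38 (adjusted p 0.149, edgeR). That of Fads1 was -0.41 ± 0.09.

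**Figure D4:**
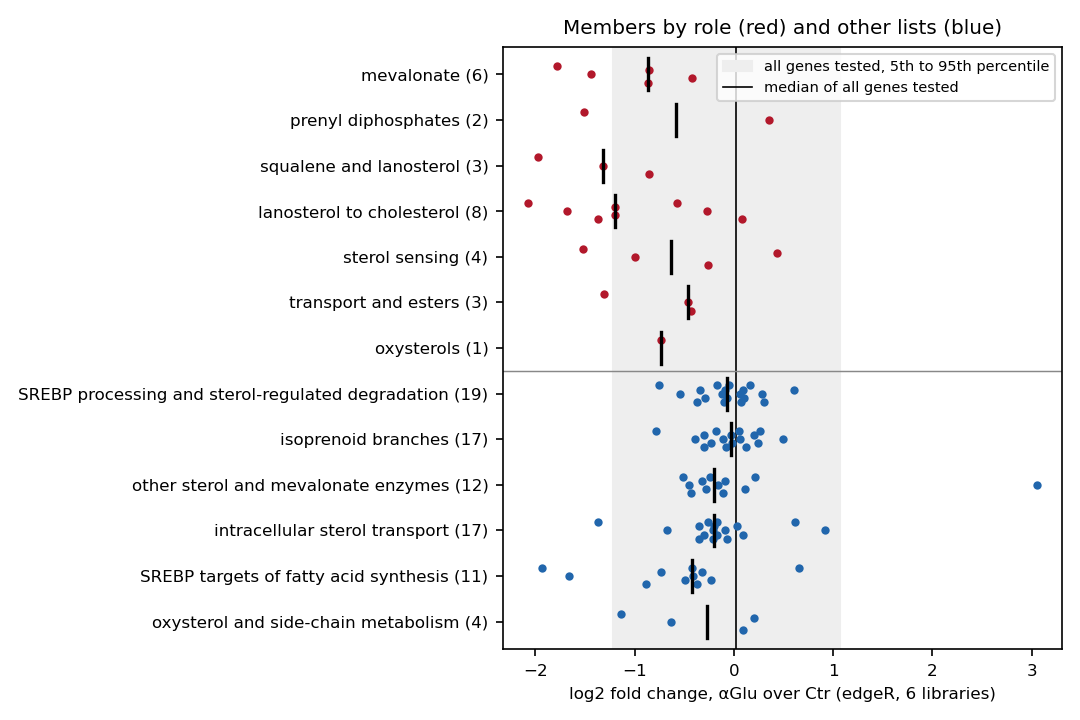
Log2 fold change of αGlu over Ctr (edgeR, 6 libraries) of each gene tested, for the members by role (red) and for the other lists (blue), with the number of genes in brackets and the median as a black bar. The grey band spans the 5th to the 95th percentile of all genes tested, from -1.22 to 1.07; the medians of the squalene and lanosterol enzymes (-1.32) and of those from lanosterol to cholesterol (-1.20) lie at its lower edge.

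Levels were compared between genes by the deposited TPM values, which account for transcript length. In Ctr, the ester genes Nceh1 (255 ± 10.3 TPM) and Soat1 (222 ± 7.26 TPM) were the most abundant members, followed by Hmgcs1 at 73.8 ± 20.6 TPM (mean ± SD, n = 3). Cyp27a1 (60.5 ± 5.82 TPM), Ebp (60.1 ± 6.27 TPM) and Srebf2 (53.2 ± 15.1 TPM) came next and did not differ beyond their spread. Sqle was at 22.6 ± 11.4 TPM, and Tm7sf2 and Ch25h were the lowest, at 2.54 ± 0.47 and 0.287 ± 0.164 TPM. In αGlu, Insig2 (37.8 ± 11.9 TPM) stood above Insig1 (18.6 ± 2.34 TPM), whereas in Ctr Insig1 (50.7 ± 19.7 TPM) stood above Insig2 (26.3 ± 1.93 TPM). In αGlu, Ebp (52.7 ± 3.34 TPM) was the most abundant of the 19 enzymes and Hmgcs1 had 28.7 ± 6.87 TPM. The counts of some members are less certain. By GENCODE M21 (GRCm38), exons of Fdps overlap Gm43738 and those of Tm7sf2 overlap Vps51 on the same strand, and exons of Hmgcs1, Idi1, Ggps1, Fdft1, Lss, Cyp51, Scap and Ch25h overlap a gene on the opposite strand.

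**Figure D5:**
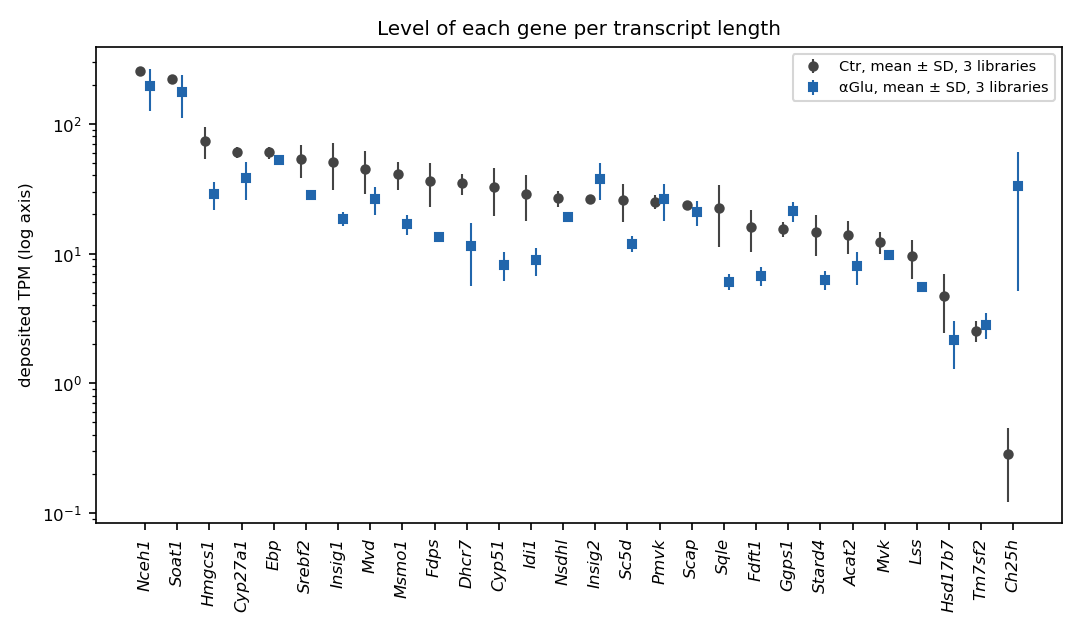
Deposited TPM of the 28 members on a log axis, ordered by the Ctr mean (circles, Ctr; squares, αGlu; bars, ± SD over 3 libraries). Nceh1 and Soat1 lead in both groups, and Ch25h is lowest in Ctr at 0.287 TPM with a mean of 32.9 TPM and a wide SD in αGlu.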

How the data were processed

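Stranded mRNA libraries from 3 Ctr and 3 αGlu cultures were analysed. The authors used the QIAGEN RNA-seq Analysis Portal, and the submitters' processing notes name the build GRCm38; the aligner and the annotation are not given in the sources used here, nor is the strand setting. The authors deposited whole-number counts per gene without normalization, and TPM, which the authors scaled by length and depth; both were used, and the deposited CPM and RPKM columns were not. No column was left unmatched to a library.

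Counts were filtered with filterByExpr (minimum count 10, minimum total 15), scaled by TMM and fitted by a quasi-likelihood model without covariates in edgeR 4.0.16 (R 4.3.3), two-sided with Benjamini-Hochberg adjustment over the 11933 genes tested. Calls needed an adjusted p below 0.1 plus a log2 fold change past 1 in either direction. CPM values use the reads of tested genes times the TMM factor as library size, and log2 values have a prior count of 2. Total counts per library were 17912831 or more, and 27 members had at least 35 reads in each library. Each library counts as 1 sample, because the study states that they came from independent experiments. Replicate libraries differed by far more than sampling noise (chi-square per gene at least 19.8), which by itself cannot show independence.

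The members, the lists and the rule for named genes were chosen with earlier results of these data known. Each member is named; values in every library are given for the 8 members with the smallest p, members with a fold change above 0, the 4 sterol-sensing genes and members removed by the filter, and 2 genes of each other pathway list are named by their p. Others with values by library were picked after these were seen. Alternatives were DESeq2 1.42.0, limma-voom (limma 3.58.1), a likelihood-ratio test, robust estimation, other factors, filters and thresholds, a replicate block, the deposited TPM, and each library left out. The models were tested on simulated data. Sequences come from the oligonucleotide list of the study and from RefSeq. Some genes of the pathway and of the other lists are not reported here.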

Additional observations from a re-analysis of the deposited data

How the results depend on the processing

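The direction of the members as a group did not depend on the processing. Their median log2 fold change stayed between -1.04 and -0.68 under all 16 alternative fits, and 20 members lay lower without overlap under each scaling and in the deposited TPM, or 20 to 23 with a library left out. Calls did depend on it. With 0 calls in the main test, DESeq2 called 1117 genes and 14 members, edgeR by likelihood ratio 899 and 13, and a looser limit of 0.2 on the adjusted p 993 and 13. Leaving out 1 library gave 0 to 2290 genes and 0 to 14 members, all of the calls without αGlu 1. The cause of these differences was not tested. The fit with a replicate block called 17 genes, 8 of them lower, and 3 members, Hmgcs1, Cyp51 and Msmo1. Libraries of the same number deviated from their group means with correlations of 0.08, 0.06 and 0.15, and those of other numbers with -0.11 to 0.05. The same-number values were thus the higher ones, but all were small. Whether libraries of the same number came from the same experiment was not tested. Single members changed sign where their fold change was small. Pmvk was at 0.06 with library size alone and between -0.23 and 0.17 with 1 library left out, and Tm7sf2 was between -0.05 and 0.22. At 3 libraries a group, the spread of αGlu 1 against αGlu 2 and αGlu 3 limits the precision for Soat1, Nceh1, Scap, Insig2 and Ch25h.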
